A study of Mus musculus with 8 samples.

Results

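The 7 genes described here are Acod1, which makes the metabolite itaconate, and 6 genes of the inflammasome: Nlrp3, Aim2, Pycard, Casp1, Casp4 and Gsdmd. They were followed by ATAC-seq, which maps open chromatin by letting the Tn5 transposase insert sequencing adapters into accessible DNA. Every peak whose summit lay within 50 kb of the span of one of these genes was taken from all 8 peak lists. That gave 526 of 411171 peaks, and these merged into 92 of the 76751 regions of the whole series. The rule used gene names and distance only, and no measured value.

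The cells were mouse macrophages grown from bone marrow for 7 days in 60 mm dishes, and they came in 4 groups with 2 libraries each. The groups were Lamin-A knockout (KO) cells given lipopolysaccharide (LPS) for 6 h, wild-type (WT) cells given LPS for 6 h, untreated KO cells and untreated WT cells. Lamin-A, encoded by Lmna, is a filament protein of the nuclear lamina, and LPS, from the outer membrane of gram-negative bacteria, is recognised by the receptor TLR4. All cells were frozen in medium with 5% DMSO before the assay. The labels do not give the LPS dose, the targeted part of Lmna, what drove the deletion, the sex or age of the animals, or whether the 2 libraries of a group came from separate animals. The limma p-values below therefore measure a spread between libraries, which may be technical. That spread is not taken from the 2 libraries of a group at a region alone, as limma shrinks it towards the spread of all tested regions. Regions share the shifts of a library, so very small p-values do not stand for more than 2 libraries a group. Titles and treatment fields, which say LPS, set the groups, although the source field of those same libraries reads untreated as well.

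Acod1 encodes the mitochondrial enzyme that decarboxylates cis-aconitate, an intermediate of the citric acid cycle, to itaconate, and macrophages given LPS are the cells in which it is best known. An inflammasome is a protein platform in the cytosol. A sensor such as NLRP3 or AIM2 binds the adaptor ASC, encoded by Pycard, which recruits pro-caspase-1. Caspase-1 then cuts pro-IL-1 beta and pro-IL-18 and cuts gasdermin D, whose free part forms pores in the membrane. Mouse Casp4, also called caspase-11, senses LPS inside the cell and cuts gasdermin D without that platform.

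The lists held 44504 to 59750 peaks and were shorter in KO (44504 to 49661) than in WT (53942 to 59750). Promoters of 4 of the 5 macrophage markers with a promoter entry (Cd68, Mertk, Fcgr1 and Lyz2) were called in all 8 libraries, and none of those of B cells (3 genes), T and NK cells (5) or erythroid cells and megakaryocytes (4) was called in any. Of the neutrophil markers, the S100a8 promoter was called in all 8 libraries and the other 4 in none. Of 4 dendritic cell markers, the Flt3 promoter was called in 0 LPS libraries, in 1 of 2 untreated KO libraries and in 2 of 2 untreated WT libraries; its part in the LPS results was not tested. Within Lmna, a peak with its summit between positions 88483811 and 88483818 of chromosome 3 was called in all 4 WT libraries and in no KO library. A neighbouring peak, with its summit at 88484726 to 88484759, was called in all 4 KO libraries and in no WT library, so the lists fell into the labelled genotypes there; both peaks were chosen after their values were seen.

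A peak list gives each peak a fold enrichment, its height over the local background. From the fold and the p-value of a peak, both parts of that ratio were recovered: the pileup, which is the whole number of reads stacked at the summit, and the local background, the mean pileup expected from the surrounding window. The background moved in steps of 0.02 reads, the size that reads extended to 200 bp give in a window of 10 kb, although the caller's settings are not given in the sources used here. Its floor was 5.53 reads in every library. A window of that size around a summit would also take in the peak itself and its neighbours, so pileup and local background are not independent measures. This recovery, and every test on it, was chosen after the data had been seen.

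The sequences before the starts of 4 of these genes are shown because the accessibility changes below were measured over them. They are the 250 bases before the annotated start from RefSeq on GRCm38.p6 (mm10), all on the plus strand, written 5′ to 3′. Capitals mark GAGGAA, the core of PU.1 sites, and GGG and CC with any 5 bases between them, the letters used here for NF-kB sites, on either strand.
Acod1, chr14:103046762-103047011: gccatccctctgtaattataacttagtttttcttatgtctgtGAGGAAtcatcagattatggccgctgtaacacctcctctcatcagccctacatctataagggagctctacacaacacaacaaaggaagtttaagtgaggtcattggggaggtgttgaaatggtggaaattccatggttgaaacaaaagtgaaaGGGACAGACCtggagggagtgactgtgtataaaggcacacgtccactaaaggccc
Nlrp3, chr11:59541319-59541568: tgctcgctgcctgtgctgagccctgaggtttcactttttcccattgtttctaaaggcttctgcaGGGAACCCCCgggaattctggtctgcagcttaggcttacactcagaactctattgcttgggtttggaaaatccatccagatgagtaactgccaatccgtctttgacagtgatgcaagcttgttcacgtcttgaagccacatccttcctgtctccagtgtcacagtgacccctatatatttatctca
Casp4, chr9:5308599-5308848: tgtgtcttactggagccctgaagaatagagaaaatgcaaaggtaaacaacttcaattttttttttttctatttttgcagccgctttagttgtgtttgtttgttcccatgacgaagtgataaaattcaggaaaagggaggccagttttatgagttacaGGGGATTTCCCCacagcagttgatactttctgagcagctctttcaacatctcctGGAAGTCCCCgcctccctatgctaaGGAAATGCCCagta
Aim2, chr1:173420354-173420603: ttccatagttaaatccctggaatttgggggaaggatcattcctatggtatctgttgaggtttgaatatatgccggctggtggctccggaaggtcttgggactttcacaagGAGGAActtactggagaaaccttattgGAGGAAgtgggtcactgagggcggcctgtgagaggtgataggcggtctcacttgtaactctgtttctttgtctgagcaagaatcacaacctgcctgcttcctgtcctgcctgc
PU.1 is the ETS factor that marks macrophage enhancers, and NF-kB is activated downstream of TLR4. The Acod1 window held 1 PU.1 core and 1 NF-kB match, the Nlrp3 window 1 NF-kB match, the Casp4 window 5 NF-kB matches, of which 3 overlap each other, and the Aim2 window 2 PU.1 cores. The PU.1 core lies in 23.3% of all 32851 promoter windows of this length and the NF-kB letters in 45.8%. Neither AP-1 (TGANTCA, in 6.75% of windows) nor the interferon-stimulated response element core (a pair of GAAA with any 2 bases between, in 2.98%) matched in any of the members' windows. A second Nlrp3 window held 3 PU.1 cores, the Casp1 window 1 PU.1 core and 1 NF-kB match, and the Pycard window 1 PU.1 core. Gsdmd had no entry.

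Of the regions tested in these windows, the Acod1 start had the largest rise in pileup with LPS in both genotypes, and the region behind Acod1 the largest rise in local background. Before LPS the pileup at the start was lower in KO than in WT. After LPS the local background at both places was lower in KO than in WT.

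The region over the Acod1 start (chr14:103046472-103047252) was called in all 8 libraries. Its pileup was 298 and 279 reads in KO with LPS, 404 and 327 in WT with LPS, 70 and 80 in untreated KO, and 123 and 159 in untreated WT. Both LPS groups lay above both untreated groups, and the untreated KO libraries lay below all others. LPS raised the pileup by 1.95 on the log2 scale in KO (SE 0.19, limma adjusted p = 4.77e-21) and by 1.38 in WT (SE 0.19, adjusted p = 7.37e-11). In untreated cells the pileup fell by 0.90 in KO relative to WT (SE 0.19, adjusted p = 0.00034), and by 0.54 when libraries were centred on their medians (adjusted p = 0.0105). Without the second untreated WT library the uncentred KO minus WT difference was -0.72, with an adjusted p of 0.113. After LPS the KO minus WT difference was -0.33 (SE 0.19, adjusted p = 0.171), and its 95% interval ran from -0.71 to 0.05. The LPS change in KO minus that in WT was 0.57 (SE 0.27), which did not pass adjustment over all regions (limma adjusted p = 1).

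**Figure D1:**
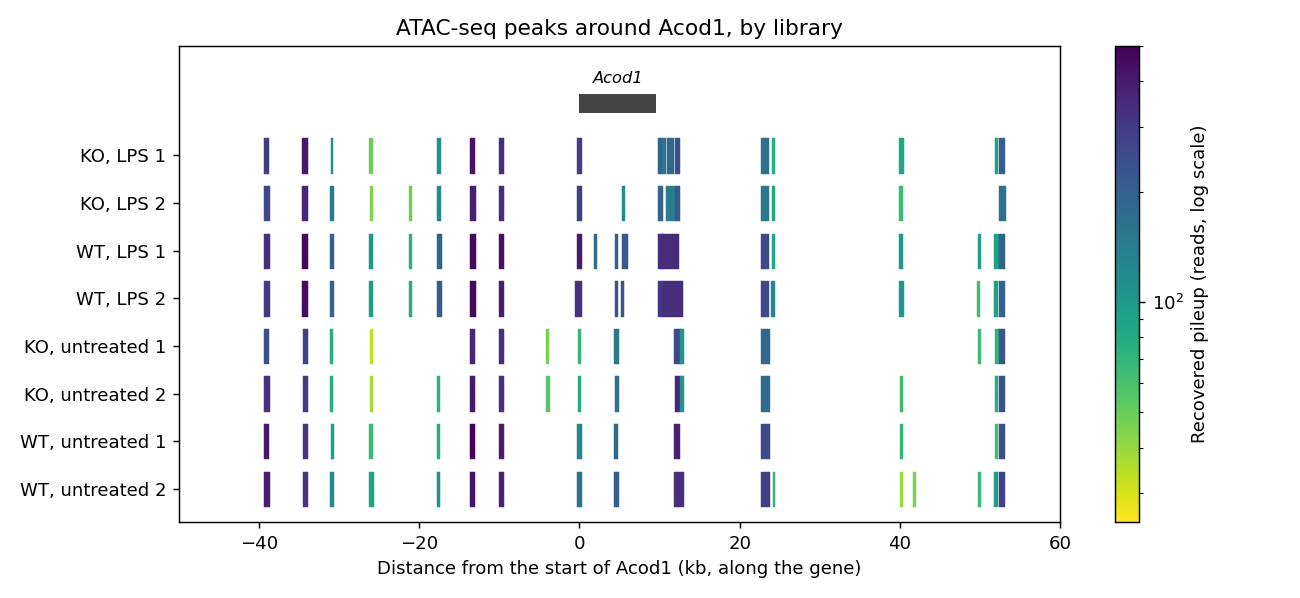
Peaks around Acod1 in the 8 libraries, one row per library, drawn at their true length against the distance in kb from the start of Acod1 along the gene, and coloured by recovered pileup in reads on a log scale. The start peak is darker in the 4 LPS rows than in the 4 untreated rows, and the peaks behind the gene together cover a greater length in the LPS rows.

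The local background around the start was 35.3 and 32.1 reads in KO with LPS and 58.9 and 53.3 in WT with LPS. It was 13.4 and 13.2 reads in untreated KO and 15.7 and 18.6 in untreated WT. Fold enrichment, the ratio in the deposited lists, was 8.24 and 8.47 in KO with LPS, 6.77 and 6.04 in WT with LPS, 4.93 and 5.70 in untreated KO, and 7.41 and 8.17 in untreated WT. By this ratio the start was higher with LPS in KO and lower with LPS in WT, while the pileup was higher in both. Within its own list the start peak stood at the 89.7th and 91.9th percentile of -log10 p in KO with LPS and at the 91.0th and 86.7th in WT with LPS. The percentiles were 33.0 and 40.7 in untreated KO and 60.6 and 69.6 in untreated WT.

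Behind the gene, with its median summit 2.59 kb past the gene's end, a region of 3215 bp (chr14:103056760-103059974) was called in all 8 libraries. Peaks covered 2022 and 1901 bp of it in KO with LPS, 2513 and 2910 bp in WT with LPS, 994 and 885 bp in untreated KO, and 606 and 1109 bp in untreated WT. The covered length was greater in every LPS library than in every untreated one. The local background there was 60.8 and 54.9 reads in KO with LPS, 97.6 and 96.5 in WT with LPS, 17.1 and 19.7 in untreated KO, and 20.6 and 21.0 in untreated WT. The 4 groups did not overlap in this measure.

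In WT that was a rise of 2.22 on the log2 scale with LPS (SE 0.12, limma adjusted p = 5.89e-71), the highest of the 25909 regions whose background stood above the floor in all 8 libraries. In KO the rise was 1.65 (SE 0.12, adjusted p = 5.44e-39), the 17th highest. Around the start the background rose by 1.34 in KO (adjusted p = 2.19e-26) and by 1.71 in WT (adjusted p = 3.2e-43), with SE 0.12 in each. The windows of neighbouring regions overlap, so these tests are not independent of each other.

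After LPS the background behind the gene fell by 0.75 on the log2 scale in KO relative to WT (SE 0.12, limma adjusted p = 3.63e-07), the 39th lowest value of 25909 regions. Around the start it fell by 0.74 (SE 0.12, adjusted p = 4.05e-07), the 48th lowest. The median over all these regions was -0.28, so KO libraries were lower in general, and after centring on library medians the 2 differences were -0.47 (adjusted p = 2.25e-08) and -0.45 (adjusted p = 7.03e-07). In untreated cells the region behind the gene gave -0.18 (SE 0.12, adjusted p = 0.184) and the start -0.36 (SE 0.12, adjusted p = 0.00795, centred -0.06 with adjusted p = 0.599). The start value was lost without the second untreated WT library (adjusted p = 0.235) or the first untreated KO library (adjusted p = 0.0568).

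The LPS change of this background in KO minus that in WT was -0.57 behind the gene (SE 0.17) and -0.37 around the start (SE 0.17). Neither passed the adjustment on the uncentred scale (limma adjusted p = 0.62 and 1). On centred libraries they were -0.59 (SE 0.09, adjusted p = 1.26e-05) and -0.39 (SE 0.10, adjusted p = 0.0396). Of all regions, 0.0579% were called higher and 0.262% lower in this centred test. Leaving out any one of the 8 libraries kept the adjusted p behind the gene between 2.7e-05 and 0.0132. Around the start the call held only without the second untreated WT library or the second untreated KO library, and the adjusted p ranged from 0.0327 to 0.373.

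The pileup of the strongest peak behind the gene had no call with LPS in either genotype. It was 245 and 220 reads in KO with LPS, 346 and 337 in WT with LPS, 257 and 362 in untreated KO, and 380 and 332 in untreated WT. The log2 change with LPS was -0.39 in KO (SE 0.18, limma adjusted p = 0.0711) and -0.06 in WT (SE 0.18, adjusted p = 0.837). Fold enrichment was 3.98 and 3.95 in KO with LPS and 3.52 and 3.47 in WT with LPS, against 14.2 and 17.5 in untreated KO and 17.7 and 15.2 in untreated WT. The ratio of the LPS mean to the untreated mean of the fold, 0.25 in KO and 0.213 in WT, was the lowest of all 30960 regions called in all 8 libraries in both genotypes. The low fold with LPS thus stood beside a raised background, with pileups that overlapped between treatments in WT and lay lower with LPS in KO. The same merged region held another peak, with its summit at 103056992 to 103057097, in every LPS library and in no untreated library. That peak had 197 and 197 reads in KO with LPS and 339 and 309 in WT with LPS, and it was not tested.

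Inside Acod1, 4.58 kb from its start, a region (chr14:103051334-103051787) was called in neither KO library with LPS and in all other libraries. Its pileup was 205 and 234 reads in WT with LPS, 151 and 163 in untreated KO, and 182 and 205 in untreated WT. The background was 104 and 96.9 reads in WT with LPS, against 12.7 and 13.3 in untreated KO and at least 17.8 in untreated WT, and the fold was 1.96 and 2.40 in WT with LPS against 9.72 to 11.5 in the untreated groups. In the second KO library with LPS a peak called 0.754 kb away stood on a background of 55.2 reads. On that background a peak needed 101 reads to reach the lowest -log10 p of that list, so in that library the missing call sets only an upper limit on the height.

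**Figure D2:**
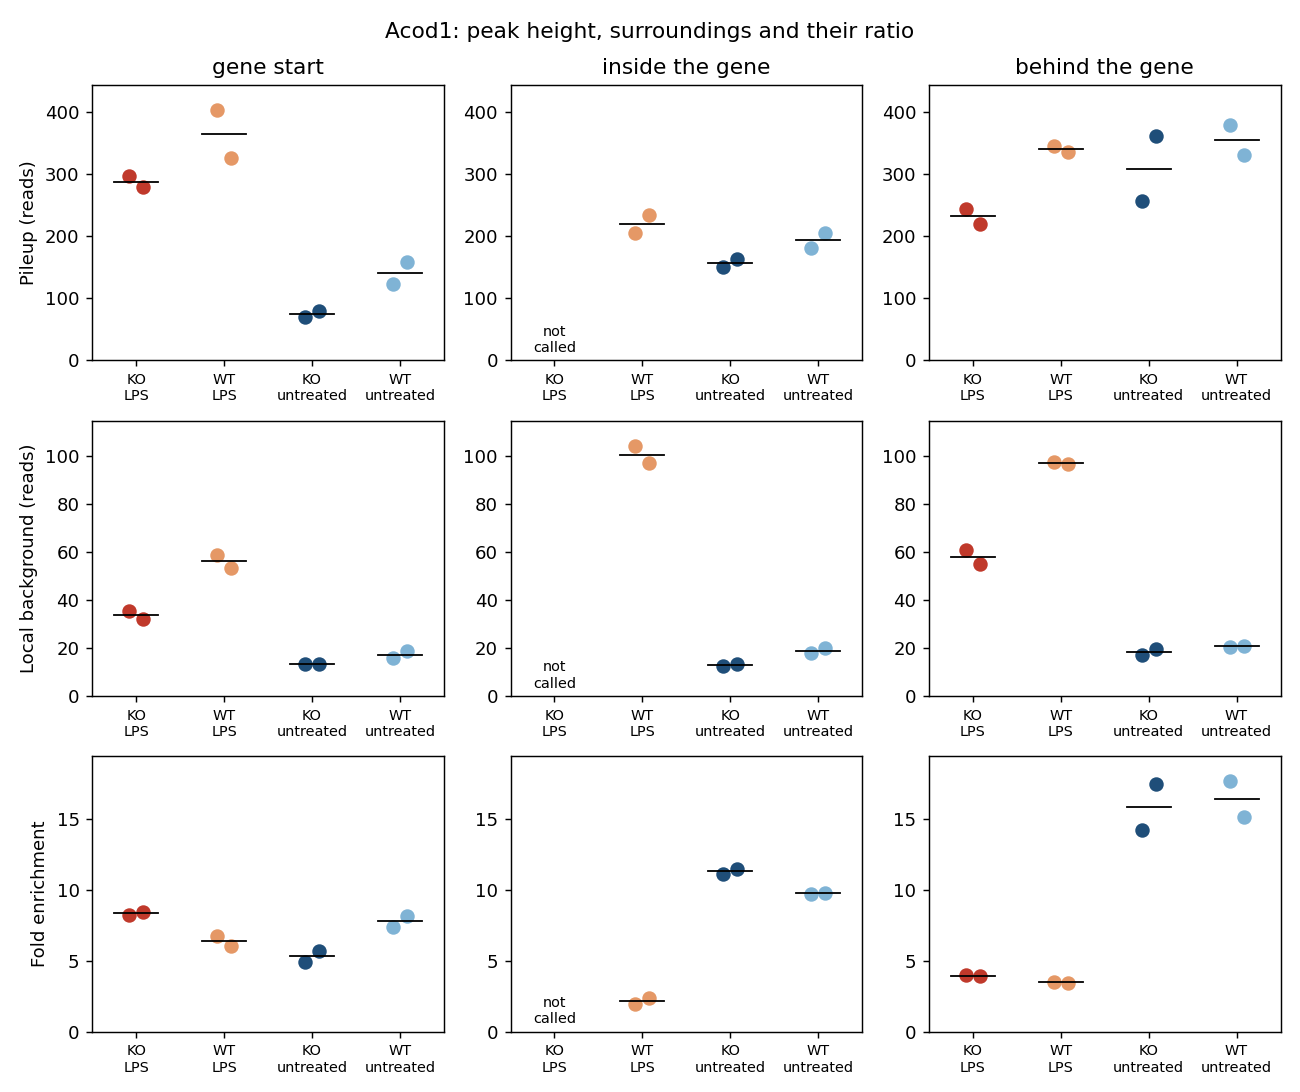
Pileup in reads (top row), local background in reads (middle row) and fold enrichment (bottom row) at the start of Acod1, inside the gene and behind it, with 1 point per library, lines at the mean of 2 libraries, and the groups KO LPS, WT LPS, KO untreated and WT untreated from left to right. Behind the gene the background is 54.9 to 97.6 reads with LPS and 17.1 to 21.0 reads without.

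Upstream of Acod1, regions 34.3 kb and 30.9 kb before the gene also changed with LPS. At 30.9 kb the pileup was 113 and 148 reads in KO with LPS and 205 and 198 in WT with LPS, against 78 and 78 in untreated KO and 94 and 119 in untreated WT. That was a log2 change of 0.73 in KO (SE 0.21, limma adjusted p = 0.00367, but 0.11 without the second KO library with LPS) and 0.93 in WT (SE 0.21, adjusted p = 0.00015). At 34.3 kb the change was 0.41 in KO (SE 0.17, adjusted p = 0.0512) and 0.54 in WT (SE 0.17, adjusted p = 0.00877). The WT call at 34.3 kb was lost when either untreated WT library or either WT library with LPS was left out, with adjusted p of 0.0629 to 0.131. The strongest region of the window by -log10 p, 13.4 kb before the gene, stood at the 94.9th percentile or above in every library and its pileup ranged from 368 to 480 reads.

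Calls in the Acod1 window showed a few differences between groups. A peak 4.03 kb before the gene was called with 46 and 55 reads in both untreated KO libraries and in no other library. A region 26.0 kb before the gene had 49 and 44 reads in KO with LPS and 100 and 95 in WT with LPS, and 33 and 37 reads in untreated KO and 66 and 87 in untreated WT. The log2 pileup there was lower in KO by an estimate of -1.07 with LPS (SE 0.24, limma adjusted p = 0.00129, centred 0.0527) and -1.12 without (SE 0.24, adjusted p = 0.00043, centred 0.0247). The first was lost without the first WT library with LPS (adjusted p = 0.061) and the second without the second untreated WT library (adjusted p = 0.0874). Regions 21.1 kb before the gene and 5.34 kb inside it were called in both WT libraries with LPS, in 1 of 2 KO libraries with LPS and in no untreated library.

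Among the sensors, Nlrp3 had more reads with LPS at its start in both genotypes, and on the uncentred scale the rise was called in KO only. The start region (chr11:59541224-59541739) had a pileup of 316 and 289 reads in KO with LPS, 362 and 308 in WT with LPS, 182 and 226 in untreated KO, and 269 and 267 in untreated WT. In both genotypes the LPS libraries lay above the untreated ones. The log2 change was 0.58 in KO (SE 0.18, limma adjusted p = 0.0067) and 0.32 in WT (SE 0.18, adjusted p = 0.176), and the WT change passed after centring (0.47, adjusted p = 0.00077). Without the first untreated KO library the KO change was 0.42 with an adjusted p of 0.11. The difference between the genotypes' LPS changes in pileup was called higher in KO at 0% and lower at 0% of all 30960 regions (limma; 1058 in either direction at an unadjusted p under 0.05), and at 0.00646% and 0.00323% after centring, with none of them in these windows.

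The local background around the Nlrp3 start was 37.4 and 34.1 reads in KO with LPS, 54.3 and 48.7 in WT with LPS, 24.9 and 25.7 in untreated KO, and 31.0 and 36.3 in untreated WT. It rose with LPS by 0.50 on the log2 scale in KO (SE 0.12, limma adjusted p = 0.00028) and by 0.62 in WT (SE 0.12, adjusted p = 3.44e-06). Both LPS groups thus lay above the untreated group of their genotype in both measures, which share reads where the window holds the peak. The second annotated Nlrp3 start, 1.12 kb further on, had pileups of 164 to 316 reads and no call with LPS in either genotype (log2 -0.12 in KO, SE 0.19, limma adjusted p = 0.645, and 0.13 in WT, SE 0.19, adjusted p = 0.624). Inside the gene, 12.8 kb from its start, the pileup was 192 and 159 reads in KO with LPS and 247 and 164 in WT with LPS, against 148 and 194 in untreated KO and 139 and 137 in untreated WT. The WT change there was 0.54 (SE 0.20, adjusted p = 0.0239), and it was 0.25 without the first WT library with LPS (adjusted p = 0.502). It was also lost without either untreated WT library (adjusted p = 0.137 and 0.168). A peak 1.27 kb before the gene was called in 1 of 2 KO and 2 of 2 WT libraries with LPS and in no untreated library.

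Aim2, the sensor of DNA in the cytosol, had fewer reads with LPS at its own start in both genotypes, and on the uncentred scale the fall was called in KO only. The region over its promoter entry (chr1:173420313-173420724) had 155 and 118 reads in KO with LPS, 185 and 167 in WT with LPS, 189 and 197 in untreated KO, and 231 and 250 in untreated WT. Within each genotype the LPS libraries were below the untreated ones. The log2 change was -0.51 in KO (SE 0.19, limma adjusted p = 0.0294) and -0.45 in WT (SE 0.19, adjusted p = 0.0635). The KO call was lost without either untreated WT library, either untreated KO library or the second KO library with LPS, with adjusted p of 0.0581 to 0.317.

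The annotated span of Aim2 is long and 26 regions lay in its window, of which 7 were called in all 8 libraries. A region 81.0 kb into the span, past the promoter, had 119 and 82 reads in KO with LPS and 168 and 143 in WT with LPS, against 54 and 62 in untreated KO and 124 and 106 in untreated WT. It rose by 0.77 on the log2 scale in KO (SE 0.22, limma adjusted p = 0.00321, and 0.114 without the first KO library with LPS), and its WT value was 0.44 (SE 0.22, adjusted p = 0.13). In untreated cells the pileup there fell by 0.99 in KO relative to WT (SE 0.22, adjusted p = 0.00072, centred -0.63 with 0.026, and 0.0602 without the first untreated WT library).

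The promoter of Ifi206, an interferon-inducible gene of the same family 25.2 kb past Aim2, had 201 and 173 reads in KO with LPS, 209 and 216 in WT with LPS, 98 and 117 in untreated KO, and 168 and 147 in untreated WT. The log2 change was 0.80 in KO (SE 0.20, limma adjusted p = 0.0005) and 0.44 in WT (SE 0.20, adjusted p = 0.0848, centred 0.59 with 0.00116). The local background around it rose by 1.04 in KO (SE 0.12, adjusted p = 6.8e-17) and by 0.82 in WT (SE 0.12, adjusted p = 8.28e-11). The 2 regions 26.3 kb and 45.8 kb past Aim2, nearest to Ifi206 and Ifi214, were the only ones of the 92 called in all 4 LPS libraries and in no untreated library. The nearer one had 77 and 70 reads in KO with LPS and 68 and 80 in WT with LPS. The strongest Aim2 region by -log10 p, 69.6 kb into the span, ranged from 196 to 362 reads and stood at the 85.6th percentile or above in every library.

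Pycard encodes the adaptor, and its start peak stood between the 8.1th and 36.4th percentile of its lists. The start region (chr7:127993188-127993951) was called with 55 reads in 1 KO library with LPS and missing from the other. It had 70 and 46 reads in WT with LPS, 50 and 56 in untreated KO, and 66 and 70 in untreated WT. The untreated KO libraries lay below the untreated WT ones, and the WT libraries with LPS overlapped the untreated WT ones. With a library missing, the region was not tested by limma. A region 31.3 kb upstream of Pycard, nearest to Trim72, had 104 and 107 reads in KO with LPS, 91 and 72 in WT with LPS, 62 and 57 in untreated KO, and 74 and 65 in untreated WT. It rose with LPS by 0.83 on the log2 scale in KO (SE 0.23, limma adjusted p = 0.00264), and its WT value was 0.22 (SE 0.23, adjusted p = 0.506). The strongest Pycard region, 25.5 kb upstream, ranged from 86 to 137 reads. A peak 24.6 kb upstream was called in both untreated KO libraries, with 42 and 39 reads, and in no other.

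Casp1 and Casp4, the proteases that cut gasdermin D, lie side by side on chromosome 9 and their windows hold the same 8 regions. The start of Casp1 (chr9:5298220-5298864) had 148 and 104 reads in KO with LPS, 133 and 131 in WT with LPS, 113 and 128 in untreated KO, and 165 and 178 in untreated WT. The start of Casp4 (chr9:5308049-5309052) had 167 and 157 reads in KO with LPS, 194 and 207 in WT with LPS, 136 and 141 in untreated KO, and 222 and 205 in untreated WT. Neither start had a call with LPS on the uncentred scale. Log2 changes with LPS were 0.04 in KO (SE 0.21, limma adjusted p = 0.891, 95% interval -0.36 to 0.45) and -0.38 in WT (SE 0.21, adjusted p = 0.164, interval -0.78 to 0.03) at Casp1. At Casp4 they were 0.23 in KO (SE 0.19, adjusted p = 0.393, interval -0.16 to 0.61) and -0.09 in WT (SE 0.19, adjusted p = 0.763, interval -0.47 to 0.29). After centring, the KO value at Casp4 was 0.38 (adjusted p = 0.0296).

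In untreated cells the Casp4 start fell by 0.62 in KO relative to WT (SE 0.19, limma adjusted p = 0.0146), and centring left -0.26 (adjusted p = 0.29). Without either untreated WT library or the first untreated KO library the call was lost, with adjusted p of 0.0929 to 0.161. A peak inside Casp1, 1.70 kb from its start, was called with 70 and 69 reads in both WT libraries with LPS and in no other library. A second peak inside Casp4, 0.65 kb from its start, was called in all 4 LPS libraries, with 127 and 135 reads in KO and 127 and 105 in WT, and in 1 untreated library of each genotype, with 77 reads in KO and 72 in WT. The region of this window that changed most with LPS lay inside Casp12, a neighbouring caspase gene, and had 105 and 117 reads in KO with LPS, 121 and 111 in WT with LPS, 60 and 53 in untreated KO, and 44 and 53 in untreated WT. It rose by 0.97 in KO (SE 0.23, limma adjusted p = 0.0003) and by 1.26 in WT (SE 0.23, adjusted p = 1.61e-06).

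**Figure D3:**
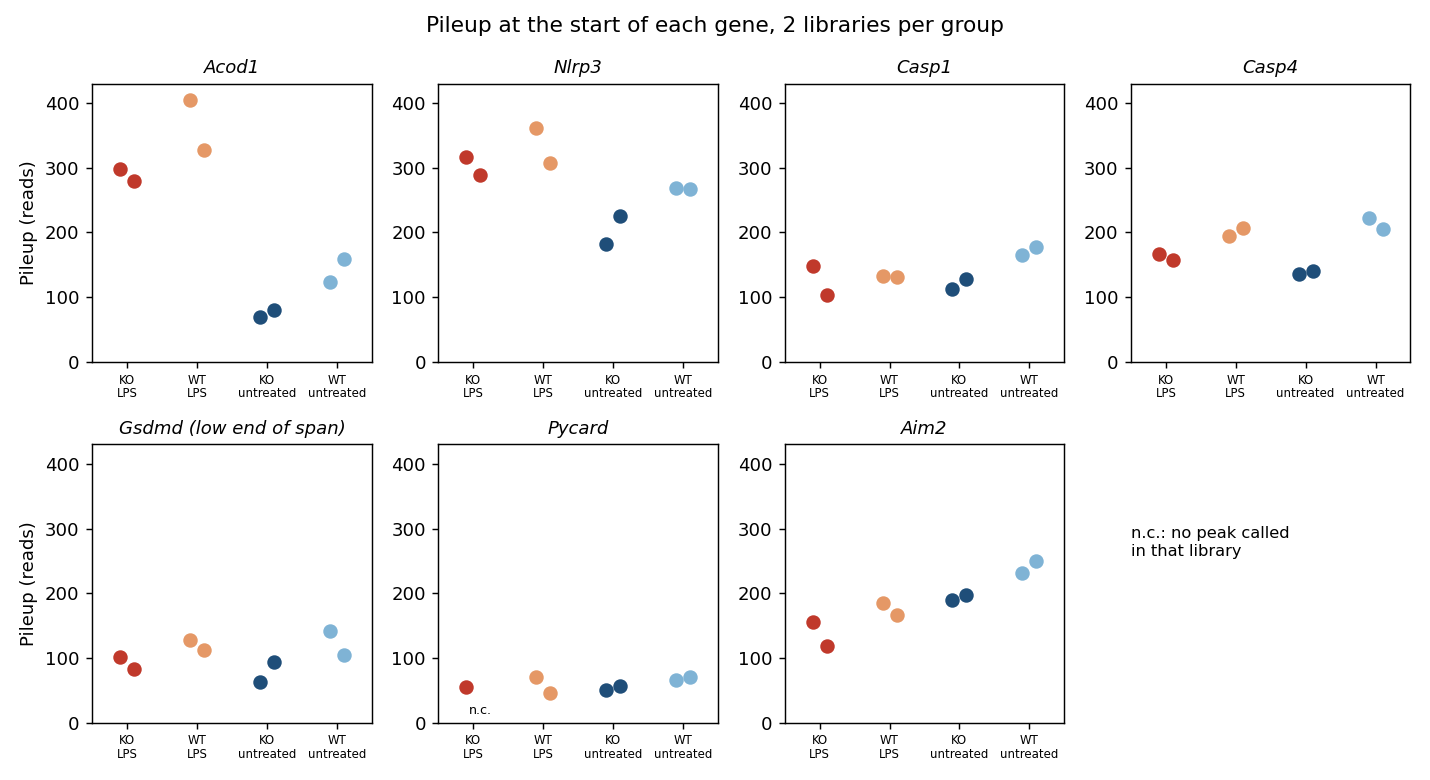
Pileup in reads at the start region of each gene, with 1 point per library and the groups KO LPS, WT LPS, KO untreated and WT untreated from left to right; for Gsdmd the region at the end of the span with the lower coordinate is shown because its strand was not in the annotation used, and n.c. marks a library with no peak. Acod1 has 279 to 404 reads with LPS and 70 to 159 without, and Pycard stays at or under 70 reads.

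Gsdmd encodes the pore former, and 10 of its 14 regions were called in all 8 libraries. The region at the lower end of its span (chr15:75862112-75862556) had 101 and 83 reads in KO with LPS, 127 and 112 in WT with LPS, 63 and 94 in untreated KO, and 141 and 105 in untreated WT. The LPS and untreated libraries overlapped in both genotypes. The log2 change with LPS was 0.25 in KO (SE 0.22, limma adjusted p = 0.407) and -0.03 in WT (SE 0.22, adjusted p = 0.937). A region 4.84 kb from the span had 158 and 140 reads in KO with LPS, 230 and 195 in WT with LPS, 188 and 245 in untreated KO, and 275 and 258 in untreated WT. It fell by 0.53 in KO with LPS (SE 0.19, adjusted p = 0.0203), a call lost without the second untreated KO library or the second KO library with LPS (adjusted p = 0.311 and 0.112). Its WT value was -0.33. The strongest region of the window by -log10 p, inside Zc3h3 and 20.1 kb from Gsdmd, ranged from 198 to 264 reads over the 8 libraries.

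The only region of the 40 whose pileup was called lower with LPS in both genotypes by limma was inside Zc3h3, 29.9 kb from Gsdmd. It had 33 and 39 reads in KO with LPS and 42 and 47 in WT with LPS, against 70 and 71 in untreated KO and 108 and 96 in untreated WT. The fall was 0.97 on the log2 scale in KO (limma log2 change -0.97, SE 0.24, adjusted p = 0.00054) and 1.20 in WT (-1.20, SE 0.24, adjusted p = 1.51e-05). Inside Mroh6, 20.3 kb from Gsdmd, a peak was called with 57 and 70 reads in untreated KO and 113 and 110 reads in untreated WT, and in none of the 4 LPS libraries.

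Over all 7 genes, 40 of the 92 regions (43.5%) were called in all 8 libraries, beside 40.3% of all regions. With LPS the pileup rose at 7 of the 40 regions in KO and fell at 3, where 9.85% and 21.4% of all regions did (limma, adjusted p under 0.05). In WT it rose at 5 and fell at 1, where 9.59% and 19.3% did. After centring on library medians 12 rose and 3 fell in KO, beside 17.3% and 18.3% of all regions, and 11 rose and 1 fell in WT, beside 16.9% and 16.5%. The median log2 change of the 40 was 0.05 in KO and 0.05 in WT, while that of all 30960 regions was -0.19 in KO and -0.18 in WT. The local background rose with LPS at 12 of 36 regions in KO and fell at 2 (15.9% and 17.2% of all), and rose at 14 and fell at 2 in WT (16.8% and 20.1%). Acod1 supplied 6 of the 12 rises in KO and 8 of the 14 in WT, and Nlrp3 4 in each.

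**Figure D4:**
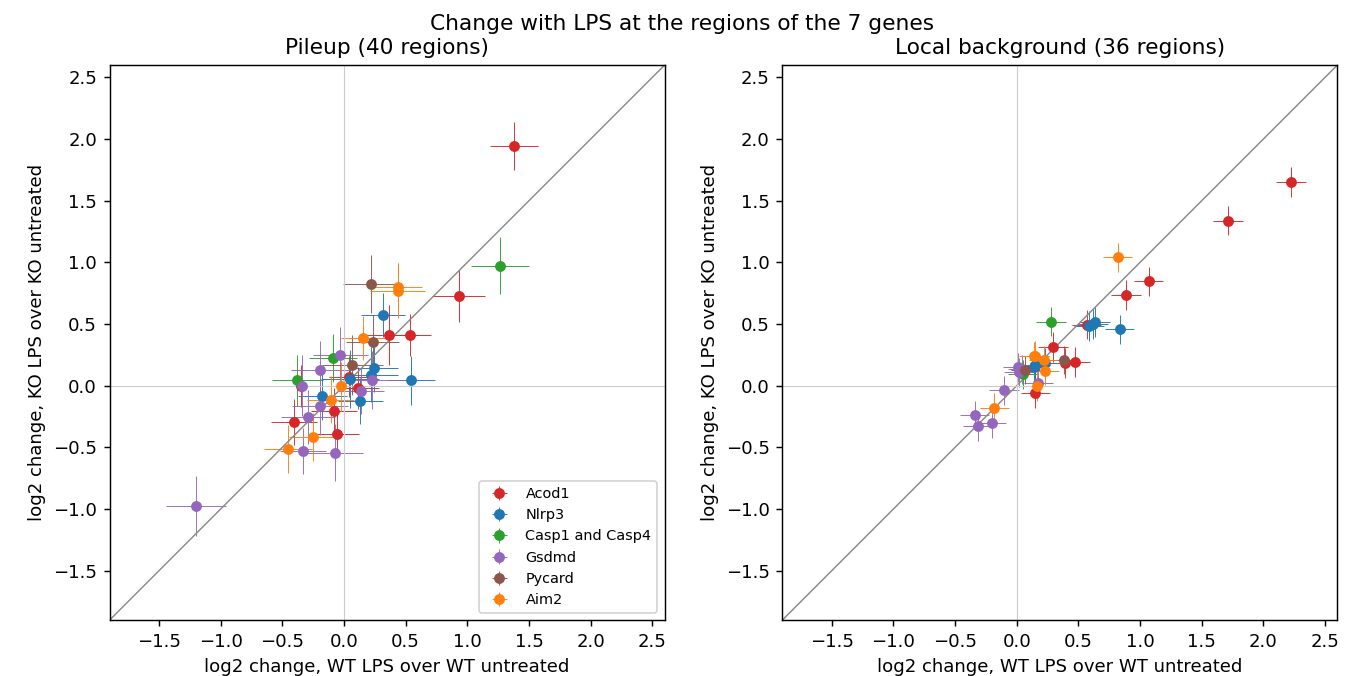
Log2 change with LPS in KO (vertical axis) against WT (horizontal axis) for pileup at the 40 regions called in all 8 libraries (left) and for local background at the 36 of them above the floor (right), coloured by gene, with bars of 1 SE and the line of equal change. The Acod1 start is the point at 1.38 and 1.95 on the left, and the 2 points farthest along the right panel are Acod1 regions that lie below the line.

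Pileup was called lower in KO at 10 of 40 regions after LPS (21.7% of all) and at 12 without LPS (21.3%), and higher at none (0.31% and 0.669%). These counts rested on single libraries: 0 were left after LPS without the first WT library with LPS, and 1 without LPS when the second untreated WT library was left out. After centring, 1 was higher and none lower after LPS (2.66% and 0.94% of all), and 2 were higher and 3 lower without LPS (4.36% and 1.87%). The 3 were the Acod1 start, the region 26.0 kb before Acod1 and the one inside the Aim2 span, all described above. The local background was lower in KO at 32 of 36 regions after LPS (55.2% of all) and at 26 without (57.9%), and centring left 8 (4.46%) and 4 (4.54%). Without the same WT libraries the uncentred counts were 6 after LPS and 7 without. After centring, 5 of the 8 lay around Acod1 and 3 within 3.01 kb of the Nlrp3 start, where their windows overlap.

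Peak calls were counted next. With LPS in KO, 5 of 92 regions were gained, that is called in both KO libraries with LPS and in neither untreated one (8.03% of all regions), and 5 lost (5.56%). In WT 6 were gained (10.1%) and 5 lost (6.02%). Both genotypes gained the same 2 regions, near Ifi206 and Ifi214, and lost the same 2, inside Mroh6 and inside the Aim2 span, where 4.85% and 1.79% of all regions did. In KO relative to WT none was gained after LPS (0.711%) and 6 lost (6.94%), and 2 were gained without LPS (0.735%) and 6 lost (6.22%). In the deposited fold, which is the authors' own value, the 2 libraries of each group did not overlap at 8 of 40 regions that were higher with LPS in KO (14.7% of all regions) and 20 that were lower (44.9%), and at 3 higher (15.5%) and 23 lower (49.2%) in WT. For KO against WT, 11 were higher (10.9%) and 9 lower (36.2%) after LPS, and 6 higher (11.9%) and 13 lower (36.1%) without. By percentile within a list, 15 were higher with LPS in KO (27.2%) and 7 lower (32.2%), and 18 higher (30.5%) and 8 lower (32.1%) in WT. For KO against WT, 4 were higher (7.85%) and 14 lower (48%) after LPS, and 4 higher (9.2%) and 21 lower (47.7%) without. No region was called gained or lost in KO in both treatments (0.0678% and 0.861%). With 2 libraries a group no exact two-sided p can go below 0.333, and over both strata it cannot go below 0.0556, so none of these calls could pass a test. When each list was cut to its strongest 44504 peaks, 1 region was lost in KO after LPS and 2 without LPS, as fewer of all regions were (2.23% and 2.08%).

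Further gained or lost regions lay in the windows of Nlrp3, Casp4 and Aim2. With LPS in KO, gains lay inside the Aim2 span at 73.5 kb and inside Ifi206, 11.6 kb past Aim2. With LPS in WT, losses lay 23.2 kb and 6.98 kb before Nlrp3 and at 28.2 kb in the Aim2 span. After LPS, regions lost in KO relative to WT lay inside Zkscan17, 44.5 kb before Nlrp3, 7.53 kb past Casp4 and inside the Aim2 span, besides those inside Acod1 and Casp1. Without LPS they lay 6.98 kb before Nlrp3, at 18.2, 24.7, 28.2 and 73.5 kb in the Aim2 span and inside Ifi206. The region at 18.2 kb overlaps the promoter of Cadm3, a gene whose span overlaps that of Aim2. The Aim2 promoter region lies at 71.0 kb, so those at 18.2, 24.7 and 28.2 kb lie before it. The Aim2 window, with 26 of the 92 regions, thus held 5 of the 6 losses without LPS. Those 6 were 6.52% of the 92 regions, beside 6.22% of all regions, and with equal numbers of peaks 2 regions were lost. At 18.2, 24.7 and 28.2 kb the untreated WT peaks had 33 to 44 reads.

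The inflammasome's wider set of genes was read from lists of regions within 50 kb of 55 further genes, and shares are again set beside those of all regions. Casp12 is among the caspases, and its 8 regions are those of the Casp1 and Casp4 windows, counted again. They hold 1 gain with LPS in WT and 2 losses in KO after LPS. Sensors, adaptors and partners (23 genes, 216 regions) gained 14 regions with LPS in KO (6.48%, where 8.03% of all regions did) and 20 in WT (9.26%, against 10.1%). They lost 9 in KO (4.17%, against 5.56%) and 12 in WT (5.56%, against 6.02%), so each share was below that of all regions. Gains lay around the guanylate-binding proteins Gbp3 and Gbp5, which act on bacterial LPS, with 4 each in KO and with 4 and 3 in WT, although these genes are neighbours and can share regions. Mefv, the sensor pyrin, gained 2 in KO and 4 in WT. The NLRP3 partner Nek7 gained 3 in each.

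Caspases, gasdermins and their products (13 genes, 142 regions) gained 15 regions with LPS in KO (10.6%, where 8.03% of all regions did) and 24 in WT (16.9%, against 10.1%). They lost 7 in KO (4.93%, against 5.56%) and 4 in WT (2.82%, against 6.02%). Il1b, the cytokine that caspase-1 releases, had 3 gained regions in KO and 6 in WT. After LPS, 16 of the 142 regions (11.3%, against 6.94% of all) were lost in KO relative to WT, and 4 of these lay around Il1b. Without LPS 9 of the 142 were lost in KO (6.34%, against 6.22% of all). Genes of itaconate metabolism and its targets (19 genes, 266 regions) gained 13 regions with LPS in KO (4.89%, where 8.03% of all regions did) and 17 in WT (6.39%, against 10.1%). They lost 16 in KO (6.02%, against 5.56%) and 11 in WT (4.14%, against 6.02%). After LPS, 17 of these 266 regions (6.39%) were lost in KO relative to WT. Among sensors, adaptors and partners 12 of 216 were (5.56%), and both shares were below the 6.94% of all regions. Nfkbiz, an LPS-induced regulator of transcription, gained 3 in KO and 6 in WT. These lists were drawn up with earlier results of these data known.

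The genes whose number of called regions, as a share of the list's peaks, followed that of Acod1 most closely over the 8 libraries, among 13867 genes, were Nbeal1 (Pearson r = 0.944), Prrx2 (0.917) and Slc7a4 (0.916). For Nlrp3 they were Iars2 (0.923), Ppp5c (0.920) and Gpcpd1 (0.920). These values describe 8 libraries and share the list length as divisor, and Acod1 itself ranged from 14 to 19 regions.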

How the data were processed

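ATAC-seq peak lists of 8 libraries, 2 for each of 4 groups, were analysed, with replicates called separately. Per the submitters' processing notes, BWA 0.7.12, MACS2 and the mm10 build were used. The filter behind the lists is not given in the sources used here, and neither are read totals. The deposited lists hold per peak the authors' ratio of summit height to local background (fold enrichment), the -log10 p and -log10 q, a score equal to 10 times the -log10 p, and the distance in bp of the summit from the peak's start. These are the authors' own values for 1 library.

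Peaks overlapping by 1 bp or more were merged, and a library held a region when it had a peak there. For a region with several peaks the strongest by -log10 p was used. Pileup and local background were solved from fold = (pileup + 1)/(background + 1) and a Poisson p, and all 411171 peaks gave a whole pileup within 0.001 in -log10 p. The background sat on its floor for 16.2% of peaks. log2 pileup (30960 regions called in all 8 libraries) and log2 background (25909 regions) were tested with limma 3.58.1 on the 4 group means with a trend in the spread, and p-values were adjusted by Benjamini-Hochberg over all regions. The planned description used fold and percentile only, and these tests were added after seeing the data. Tested on simulated data for LPS in WT, the fit recovered 84 of 100 pileup changes of 1 on the log2 scale and 6 of 100 of 0.5 among 30960 regions, and for background 100 and 72 of 100 among 25909. The simulated noise was independent between regions, with no shift shared by a whole library. These rates therefore do not cover the shifts between libraries seen in the data. Median log2 changes over all regions were -0.19 for pileup with LPS in KO, -0.18 with LPS in WT, -0.35 in KO after LPS and -0.33 in KO untreated, so values centred on library medians are given where they change a call.

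The members, gene lists and tests were chosen with earlier results of these data known. The text names all 7 genes, regions gained or lost in a comparison (a few are not reported here), the region of highest mean percentile in a window, those nearest the gene's ends, the 3 genes most like Acod1 and Nlrp3, and up to 3 genes per list and direction. Regions beyond that rule were chosen after their values were seen, because a limma test called them. Gene spans and promoters came from RefSeq on GRCm38.p6.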

Additional observations from a re-analysis of the deposited data

Results flagged for a closer look

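The LPS change of the local background differed between the genotypes at 2 Acod1 regions on median-centred libraries. KO minus WT was -0.59 on the log2 scale behind the gene and -0.39 around its start, and neither passed on the uncentred scale.

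At 3 of the 40 regions called in all 8 libraries the fold enrichment of both KO libraries moved one way with LPS and that of both WT libraries the other way. The same count over all 30960 regions was not made, so whether 3 of 40 is unusual is not known. The ratio of the LPS mean to the untreated mean was 1.57 in KO and 0.822 in WT at the Acod1 start. It was 1.33 in KO and 0.897 in WT 31.3 kb upstream of Pycard, and 1.12 in KO and 0.927 in WT 25.5 kb upstream of Pycard. These differences in fold were not tested.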

How the results depend on the processing

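Counting only peaks with a -log10 p of at least 20 gave 1 KO-gained region without LPS and 2 KO-lost in both treatments. With equal numbers of peaks, KO-lost regions were 1 after LPS and 2 without. Requiring peaks to cover 50% of a region gave 9 LPS-gained in KO and 1 KO-lost in both treatments. Shares of all regions are not given for the -log10 p and cover settings, so these counts show only how far the numbers moved. A window of 20 kb (59 regions) gave 3 LPS-gained and 3 LPS-lost in KO, 3 and 3 in WT, 0 gained and 1 lost in both genotypes, and 1 KO-gained without LPS. Median-centred libraries gave 12 regions of higher pileup with LPS in KO and 11 in WT, 1 higher and 0 lower in KO after LPS, and 2 higher and 3 lower in KO without. For local background they gave 8 lower in KO after LPS, 2 higher and 4 lower in KO without, and 2 with a lower LPS change in KO. The sign reversed for 2 values: at the region 39.1 kb before Acod1 the centred KO minus WT background was 0.0073 after LPS and 0.0031 without. Centring subtracts each library's median, and other causes were not tested.

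The replicate numbers did not pair the libraries (correlations of -0.085 to 0.031 for pileup and -0.102 to 0.0475 for background). With the replicate block, 1 region had a lower background with LPS in KO, and the smallest exact p for calls was 0.125.

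Leaving out 1 library at a time gave 5 to 10 LPS-gained and 5 to 10 LPS-lost regions in KO, 6 to 9 and 5 to 9 in WT, and 2 to 5 and 2 to 3 in both genotypes. A group left with 1 library loosens the rule for all regions, whose shares are not given here. KO-gained regions were 0 to 1 after LPS and 2 to 4 without, and KO-lost regions 6 to 14 and 6 to 13, with 0 to 3 in both treatments. Pileup was higher with LPS at 6 to 8 regions in KO and 3 to 5 in WT and lower at 1 to 6 and 1 to 3. It was lower in KO at 0 to 12 after LPS (0 without the first WT library with LPS, 2 without the second KO one) and at 1 to 15 without (1 without the second untreated WT library, 2 without the first, 3 without the first untreated KO one). Background was higher with LPS at 11 to 13 in KO and 11 to 15 in WT and lower at 0 to 3 and 0 to 2. It was lower in KO at 6 to 32 after LPS (6 without the first WT library with LPS, 14 without the second KO one) and at 7 to 26 without (7 without the second untreated WT library, 13 without the first untreated KO one).

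Read totals are not given in the sources used here, while the floor of the background, 5.53 reads, was the same in every library. In addition, 2 libraries a group limit the exact tests, and an uncalled peak has no value. Of single-region values, 1027 of 1288 kept direction and call when a library was left out, and 380 of 506 under the other alternatives.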
